A study of Mus musculus and Rattus norvegicus with 26 samples.

Results

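The metabotropic glutamate receptors Grm2, Grm3, Grm4, Grm5, Grm6, Grm7 and Grm8 were followed through the 6 lists of intronic contigs of the study, by taking every contig whose gene symbol was one of these 7. A contig is a stretch of intron covered by uniquely mapped reads, and a gene is called listed here when it has at least 1 contig. Of the 7 genes, 5 were listed, with 90 of the 112345 contigs in all lists, among 13695 listed genes. Grm2 and Grm7 had no contig in any list, and Grm8 had contigs in the rat lists only.

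These receptors belong to class C of the G protein-coupled receptors and sense glutamate, the main excitatory transmitter of the brain, through a large extracellular domain. Grm5 is a group I receptor that acts through Gq and phospholipase C and sits around the postsynaptic density of hippocampal neurons, held there by Homer proteins. Grm2 and Grm3 (group II) and Grm4, Grm6, Grm7 and Grm8 (group III) act through Gi/o proteins and lower cyclic AMP. Grm3 is known in glia as well as in neurons, Grm7 and Grm8 from presynaptic terminals, and Grm6 from the ON bipolar cells of the retina.

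The study asked whether intron sequence stays in cytoplasmic RNA, in what it calls CIRTs, cytoplasmic intron-sequence retaining transcripts. Neurons came from hippocampi of embryonic day 18 C57BL/6 mice and Sprague-Dawley rats and were grown as primary cultures, from which pools of dendrites (3 mouse libraries, 2 rat libraries) or single somas (3 libraries for each species) were taken by hand. The brown adipose tissue (BAT) cells were single cells of interscapular fat from CD-1 embryos of day 17.5 (6 libraries), picked by their shape. The cardiomyocytes were sorted single ventricular cells from day 14.5 embryos on a C57BL/6 background that were hemizygous for the Fucci cell cycle probe mAG-hGem under the ubiquitous cytomegalovirus promoter (9 libraries). All RNA went through 3 rounds of aRNA amplification. The authors pooled the libraries of a condition into 1 list, so each value below is a single pooled value with no replicate error, and no comparison between conditions was tested. The 95% intervals are exact Poisson or binomial intervals of the counts, and they cover counting error only. They treat reads as independent, so they do not cover the error of the RNA molecules before amplification and are too narrow for that. Somas, BAT cells and cardiomyocytes were taken whole, so their lists can hold RNA of the nucleus, whereas the cut dendrites can hold axons and come from many neurons. In such a pool, fewer neurons with a transcript and fewer copies in each neuron cannot be told apart.

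The lists differed in size. They held between 6103 contigs (rat soma) and 42338 contigs (BAT cells), and between 1007530 reads (rat dendrite) and 17858440 reads (BAT cells). Reads of a gene were therefore also scaled to reads per 1000000 listed reads of the same list (RPM below). Markers of other cell types were listed widely. Among 7 neuron markers, 4 were listed in mouse dendrites, 6 in mouse somas, 4 in BAT cells, 2 in cardiomyocytes, 2 in rat dendrites and 3 in rat somas, and Map2, the classic dendritic marker, was listed in none. Their summed level ran from 373 RPM in cardiomyocytes to 8026 in mouse somas.

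Of the 75 receptor contigs in mouse, 7 were followed within 30 nt by a run of at least 10 adenines in the genome (9.33%, interval 3.84 to 18.3), beside 6.27% of all mouse contigs, which lay inside that interval. The ends of 6 of the 7 are shown because the amplification starts from a poly(T) primer. They are read on the strand of the gene, 5′ to 3′, in mm9. The first 20 bases of each are the last bases of the contig, and capitals mark the genomic adenine run downstream of the contig. In the dendrite contig of Grm5 intron 5 the run begins within the contig, in lower case.
Grm3 intron 5, mouse dendrite, chr5:9492826-9492881, minus strand: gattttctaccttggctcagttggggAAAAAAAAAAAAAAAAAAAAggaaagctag
Grm5 intron 4, mouse dendrite, chr7:95085778-95085841, plus strand: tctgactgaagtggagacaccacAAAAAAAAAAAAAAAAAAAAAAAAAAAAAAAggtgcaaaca
Grm5 intron 4, mouse dendrite, chr7:95107515-95107578, plus strand: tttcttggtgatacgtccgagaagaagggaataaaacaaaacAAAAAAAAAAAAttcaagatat
Grm5 intron 5, mouse dendrite, chr7:95131724-95131767, plus strand: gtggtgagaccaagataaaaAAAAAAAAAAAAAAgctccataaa
Grm5 intron 4, mouse soma, chr7:95094022-95094065, plus strand: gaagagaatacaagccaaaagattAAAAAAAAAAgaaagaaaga
Grm5 intron 5, mouse soma, chr7:95129605-95129652, plus strand: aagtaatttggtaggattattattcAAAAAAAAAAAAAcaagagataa
The longest of these runs had 31 adenines and began 3 bases after a Grm5 contig of the dendrites. The next longest had 20 adenines, in Grm3.

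**Figure D1:**
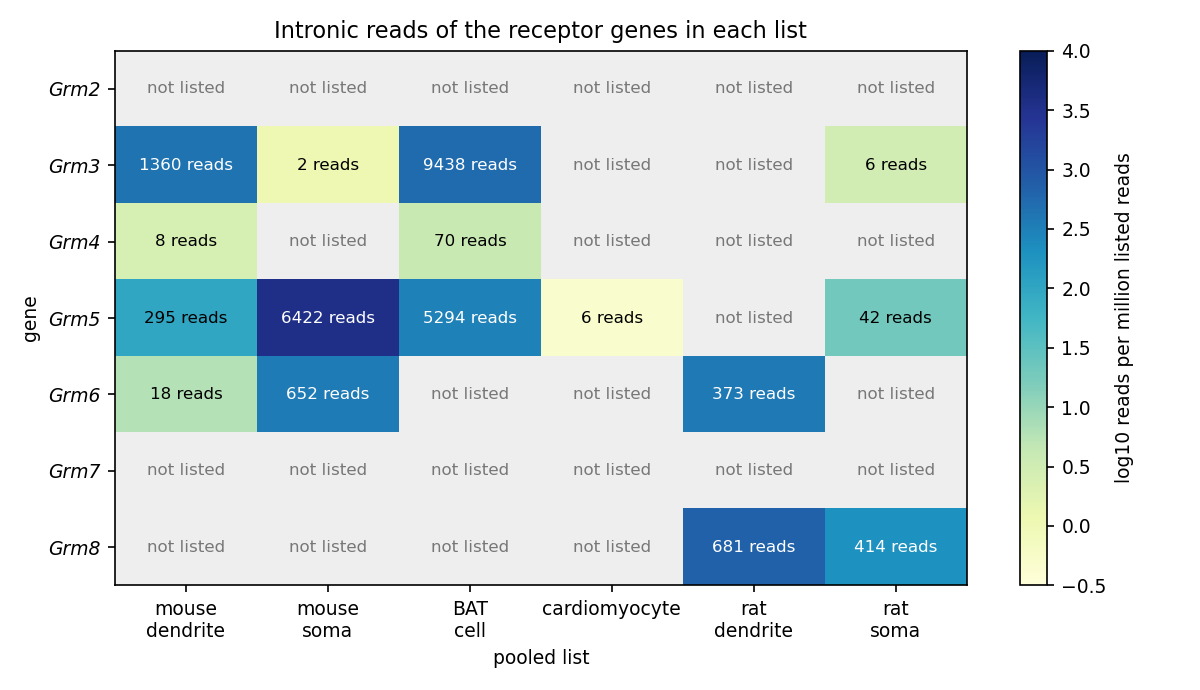
Reads of the 7 receptor genes (rows) in the 6 pooled lists (columns), written as read counts and coloured by log10 RPM of listed reads; grey cells were not listed. Grm5 had values in all 4 mouse lists, from 6 reads in cardiomyocytes to 6422 in mouse somas, while the rows of Grm2 and Grm7 are empty.

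Grm5 (NM_001081414), the group I receptor of the set, was listed in all 4 mouse lists, and its highest value was in the neuronal somas. It had 6422 reads in mouse somas, 5294 in BAT cells, 295 in mouse dendrites and 6 in cardiomyocytes. Scaled to the lists, these were 3461 RPM in somas (interval 3377 to 3547), 296 in BAT cells (289 to 305), 95.6 in dendrites (85.0 to 107) and 0.492 in cardiomyocytes (0.180 to 1.07). None of these intervals overlapped, although the spread between libraries behind them is unknown. It was the 1 receptor among the 4 in the mouse lists to be found in every one of them, beside 24.6% of the 12467 genes of the mouse lists. In the rat (NM_017012), Grm5 had 42 reads in somas (20.1 RPM, interval 14.5 to 27.1) in a single contig of 204 nt, and it was not listed in dendrites.

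The GENCODE model used for Grm5 spans chr7:94751054-95279379 in mm9 on the plus strand and has 8 introns with 525 kb in sum. Contigs lay in only 2 of the introns of this model, numbered 4 and 5 in the lists, which by coordinates are introns 2 and 3 of the model. The listed transcript may thus have introns farther upstream that the model lacks. Intron 4, with 171 kb, follows codon 302 and intron 5, with 51.1 kb, follows codon 381, both in the part that codes for the extracellular domain. The longest intron of the model, with 201 kb, had no contig. All 48 contigs of Grm5 in mouse lay inside these introns and touched no annotated exon.

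The split between the 2 introns differed between lists. In somas, 6417 reads were in intron 4 and 5 in intron 5, or 37.5 and 0.0979 reads per kb of intron. In BAT cells intron 4 had 3833 reads and intron 5 had 1461, or 22.4 and 28.6 reads per kb. In dendrites the 2 introns had 209 and 86 reads, or 1.22 and 1.68 reads per kb. Per length, intron 5 was thus slightly above intron 4 in dendrites and BAT cells and far below it in somas, and the intervals of the 2 introns overlapped in dendrites only.

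In intron 4 of Grm5 the soma list had 18 contigs, the dendrite list 13, the BAT list 8 and the cardiomyocyte list 1. By number of contigs, this intron ranked 2 among the 10568 introns of the soma list and 18 among the 19477 of the dendrite list. The soma contigs were longer, with a median of 434.5 nt and a maximum of 1867 nt against 238 nt and 947 nt in dendrites, and together they covered 11237 nt, or 6.57% of the intron, against 2.19% in dendrites and 1.53% in BAT cells. Of the soma contigs, 11 of 18 lay in the 5′-most of 3 equal parts of the intron and 6 in the 3′-most, while in dendrites 3 of 13 lay in the 5′-most and 9 in the 3′-most. The contig nearest to a splice site began 385 nt after the 5′ splice site, in somas, and no dendrite contig came closer to either splice site than 15175 nt.

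**Figure D2:**
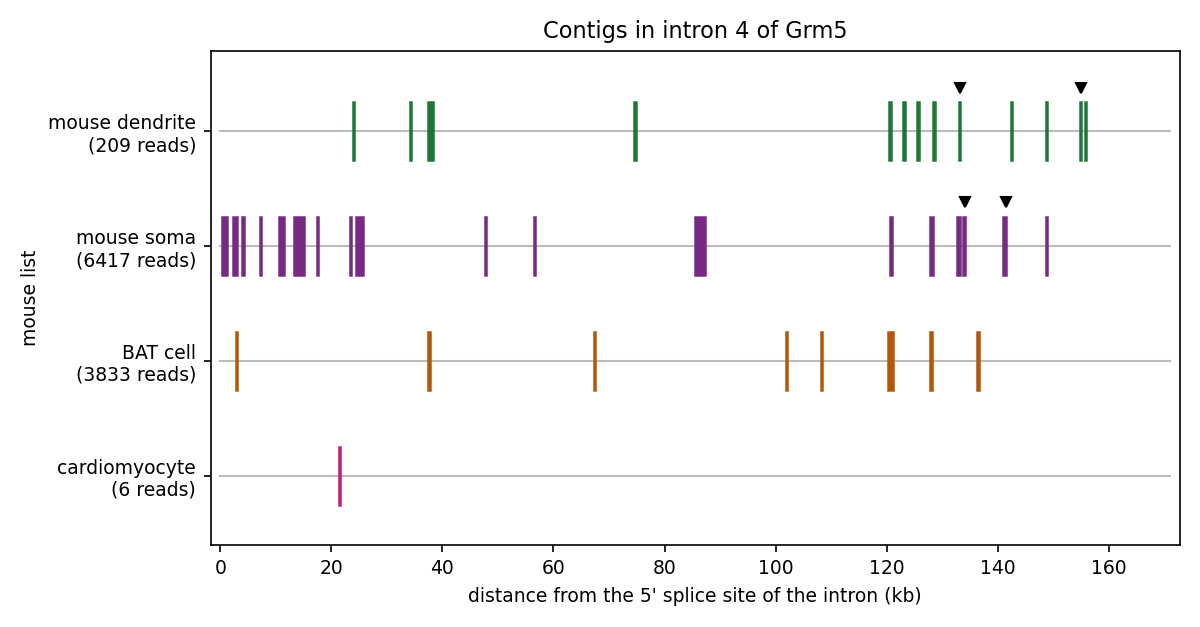
Contigs in intron 4 of Grm5 (171 kb) in the 4 mouse lists, placed by their distance in kb from the 5′ splice site; triangles mark contigs followed within 30 nt by at least 10 genomic adenines. Soma contigs crowd the first 26 kb and dendrite contigs lie mostly beyond 120 kb, while 4 contigs are marked, 2 in each of these lists.

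A few stretches of the intron were covered in more than 1 list. Between dendrites and somas, 3 pairs of Grm5 contigs shared bases, between dendrites and BAT cells 2 pairs, and between somas and BAT cells 3 pairs. In introns shared by somas and BAT cells, 3 of 20 soma contigs of the receptors (15%) overlapped a BAT contig, and over all shared introns 42.1% did. In 1 pair the ends were almost the same: the dendrite contig of 221 nt and the soma contig of 222 nt ended on the same base, and their starts were 1 nt apart. Over all genes, 154 of the 3133 overlapping pairs of dendrite and soma contigs had both ends within 5 nt. No run of 10 adenines lay within 300 nt downstream of either. A second stretch, of 193 nt, was common to contigs of dendrites, somas and BAT cells. Both are printed, in lower case and on the plus strand of mm9, since separate libraries had these parts of a receptor intron in common.
Grm5 intron 4, mouse dendrite and mouse soma, chr7:95101219-95101440: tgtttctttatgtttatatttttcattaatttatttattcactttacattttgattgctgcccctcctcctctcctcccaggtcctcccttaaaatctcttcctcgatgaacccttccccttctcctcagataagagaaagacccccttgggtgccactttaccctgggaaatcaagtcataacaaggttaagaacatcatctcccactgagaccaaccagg
Grm5 intron 4, mouse dendrite, mouse soma and BAT cell, chr7:95073107-95073299: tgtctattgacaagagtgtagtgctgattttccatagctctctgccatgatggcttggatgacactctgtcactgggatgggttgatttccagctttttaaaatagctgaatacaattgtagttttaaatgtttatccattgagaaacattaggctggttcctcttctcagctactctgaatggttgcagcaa
The site before the run of 31 adenines shown above was also shared. The dendrite contig of 232 nt ended 3 bases before the run, and the soma contig of 610 nt contained the whole dendrite contig and ended 26 nt farther downstream, inside the run.

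Grm3 (NM_181850), a group II receptor, had most of its reads in BAT cells and mouse dendrites. It had 9438 reads in BAT cells, 1360 in mouse dendrites, 2 in mouse somas and none listed in cardiomyocytes. These were 528 RPM in BAT cells (518 to 539), 441 in dendrites (418 to 465) and 1.08 in somas (0.131 to 3.89). The dendrite and BAT levels were of similar size in their own lists, though their intervals did not overlap, and the soma level was far below both. In the rat (NM_001105712), the gene had 6 reads in somas, in 2 contigs of intron 3, and was not listed in dendrites.

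Astrocyte markers, which matter for a receptor known in glia, were listed in the neuronal lists as well. Of 7 such markers, 4 were listed in mouse dendrites, with a summed 966 RPM, and 3 in mouse somas, with 142. The most reads were those of Aldh1l1, a folate enzyme of astrocytes, with 2826 in dendrites and 6 in somas. Slc1a2, the glial glutamate transporter, went the other way, with 254 reads in somas and none listed in dendrites. In BAT cells 4 of the 7 were listed, at 45.4 RPM, and in cardiomyocytes none. Gfap had 5 reads in dendrites and was absent from the soma and BAT lists, and S100b and Gja1 were absent from all 4 mouse lists. Of 5 oligodendrocyte markers and 5 microglia markers, 2 and 3 were listed in dendrites and 1 and 2 in somas. The marker sets of heart and brown fat were also higher in dendrites than in somas. They had 780 against 10.2 RPM for 9 cardiac markers and 322 against 2.16 for 7 markers of brown fat. Single genes weighed heavily in such sums: in dendrites Aldh1l1 had 916 of the 966 RPM of astrocyte markers, and Ryr2 had 280 of the 780 RPM of cardiac markers. The part of other cells in the Grm3 reads was not tested.

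Grm3 spans chr5:9485236-9725352 on the minus strand, with 5 introns that sum to 237 kb. The dendrite list had contigs in introns 2 to 5, the BAT list in introns 2, 3 and 5, and the soma list in intron 3. Intron 3, of 57.4 kb and after codon 441, held 9332 of the 9438 reads in BAT cells and 1220 of the 1360 in dendrites, which were 163 and 21.3 reads per kb of intron. Intron 5 held 118 reads in dendrites and 6 in BAT cells, or 6.25 and 0.318 per kb, and intron 2 held 2 and 100, or 0.106 and 5.32 per kb. Intron 4 was listed in dendrites only, with 20 reads. Intron 1 is the longest, with 135 kb, precedes the coding part and had no contig.

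The stretches covered in the shared introns were then compared. In the 3 introns that dendrites and BAT cells shared, 8 dendrite contigs and 11 BAT contigs had no base in common, and the smallest gap between them was 109 nt. Over all introns shared by these lists, 29.4% of the dendrite contigs overlapped a BAT contig, so contigs without overlap were the usual case. In intron 3 the 4 dendrite contigs began between 32858 and 52069 nt after the 5′ splice site, and the 7 BAT contigs between 3501 and 36689 nt. The single soma contig overlapped neither.

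**Figure D3:**
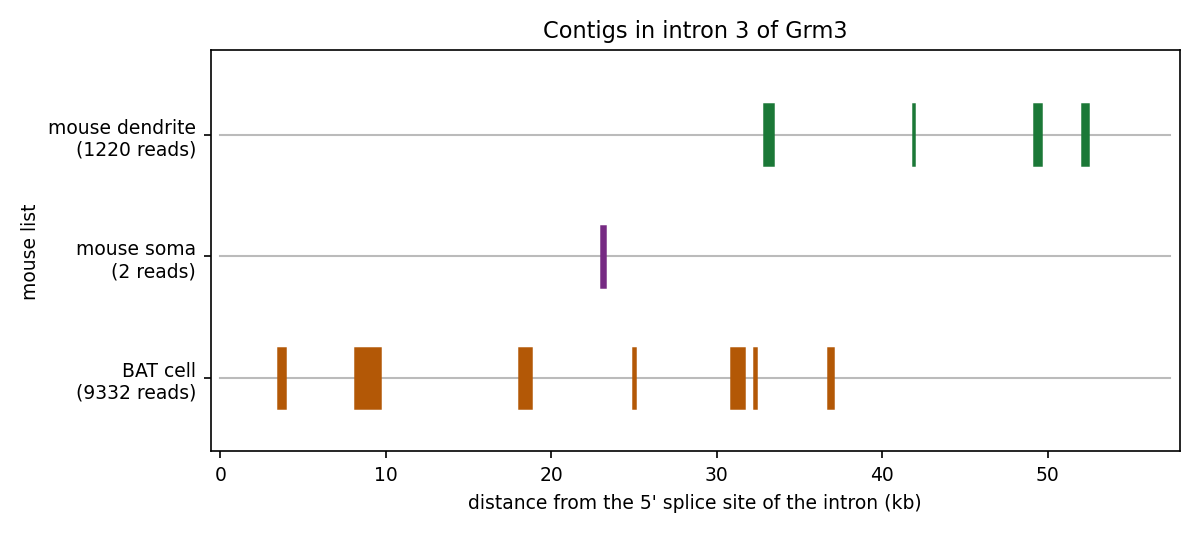
Contigs in intron 3 of Grm3 (57.4 kb) in the mouse lists with reads there, placed by their distance in kb from the 5′ splice site. The 7 BAT contigs begin between 3501 and 36689 nt and the 4 dendrite contigs between 32858 and 52069 nt, so that both occur around the middle of the intron, and no contig of one list overlaps a contig of another.

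Grm6 and Grm4 were the group III receptors listed in mouse. Grm6 (NM_173372) had 652 reads in mouse somas (351 RPM, interval 325 to 379) and 18 in mouse dendrites (5.83, interval 3.46 to 9.22), and was not listed in BAT cells or cardiomyocytes. Both contigs lay in intron 9, of 2859 nt and after codon 702, in the gene at chr11:50664187-50679708 on the plus strand. They did not overlap: the soma contig, of 435 nt, began 358 nt after the 5′ splice site, and the dendrite contig, of 617 nt, began 1337 nt after it, leaving a gap of 544 nt, and in all introns shared by both lists 34.6% of the dendrite contigs overlapped a soma contig. The soma contig is over the limit of 400 nt that the study set for whole cells, and with that limit Grm6 was not listed in mouse somas. In the rat (NM_022920), Grm6 had 373 reads in dendrites (370 RPM, interval 334 to 410) in a contig of 422 nt in intron 1 and no contig in somas.

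Grm8 (NM_022202), a presynaptic group III receptor, was listed in the rat alone. It had 681 reads in rat dendrites (676 RPM, interval 626 to 729) and 414 in rat somas (198, interval 179 to 218). The dendrite reads came from 4 introns, with 6 reads in intron 1, 171 in intron 2, 231 in intron 5 and 273 in intron 8, and the soma reads from intron 2 only. In intron 2, the 4 dendrite contigs and the 2 soma contigs did not overlap, whereas over all 1850 introns in both rat lists 54.0% of the dendrite contigs overlapped a soma contig.

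Grm4 (NM_001013385), also of group III, had few reads. In mouse dendrites it had 8 reads (2.59 RPM, interval 1.12 to 5.11), 6 in intron 1 and 2 in intron 4. In BAT cells it had 70 reads (3.92, interval 3.06 to 4.95) in 1 contig of 596 nt in intron 1, which the limit of 400 nt removes. The intervals of the 2 lists overlapped. Its contigs in intron 1 were at least 5558 nt apart.

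Grm2 and Grm7 had no reads in any list, which does not mean that none were sequenced, since the authors dropped introns that held a predicted gene or a known poly(A) site. Grm2 has little intron sequence, with 5 introns that sum to 8.25 kb, whereas Grm7 has 917 kb and Grm8 856 kb. Of the mouse coding genes with under 10 kb of introns, 26.9% were listed in at least 1 mouse list, and Grm2 is among those that were not. Of those with 10 to 100 kb, 77% were listed, and Grm4 and Grm6 are 2 of 2 in this class. Of those with 100 to 500 kb, 84.2% were listed, among them Grm3. Of the 189 genes with at least 500 kb, 82.5% were listed, but of the receptors in this class only Grm5 was, 1 of 3. Grm7 and Grm8 had no contig in mouse despite this length.

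**Figure D4:**
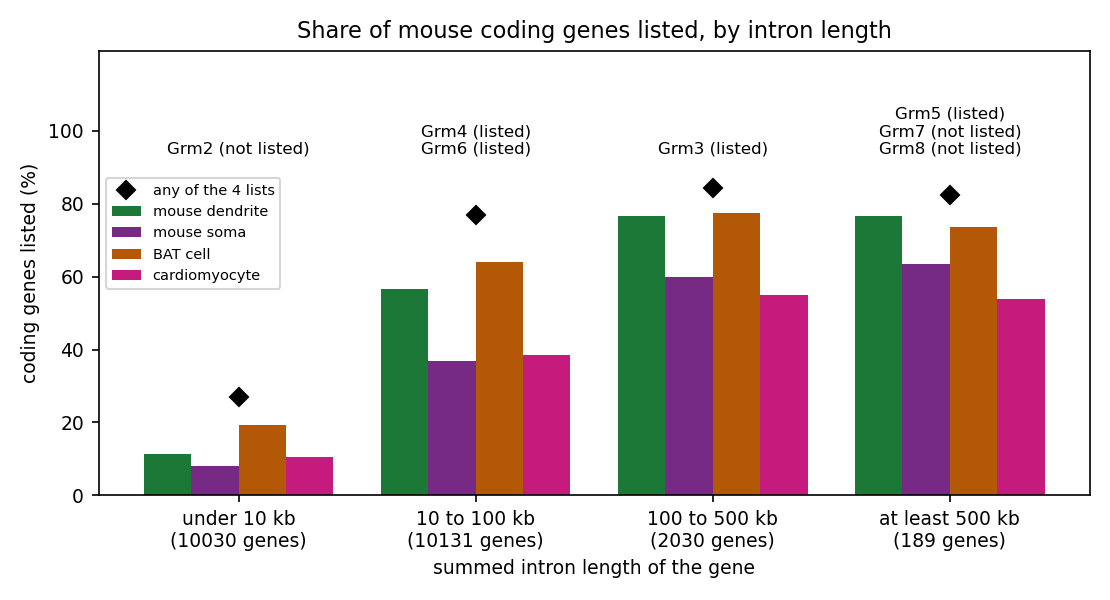
Share of mouse coding genes (%) with a contig in each mouse list (bars) and in any of the 4 (diamonds), by the summed intron length of the gene. The share is lowest under 10 kb, the class of Grm2, and above 80% in any list from 100 kb on, where Grm7 and Grm8 were not listed.

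The comparison of compartments could be made for 4 receptors that were listed in both. In mouse, the share of listed reads of Grm3 was 8.68 log2 units higher in dendrites than in somas (interval 6.82 to 11.7), with only 2 soma reads behind it, and 7.61 with soma contigs of at most 400 nt. Grm5 was at -5.18 (interval -5.35 to -5.01; -6.24 with that limit) and Grm6 at -5.91 (-6.68 to -5.24), so both were higher in somas. The limit left the soma reads of Grm3 and Grm5 unchanged, so their shifts came only from the smaller total of listed soma reads. Of these 3 receptors, 1 was at least 2-fold higher in dendrites and 2 in somas, while of all 4739 mouse genes in both lists 42.7% were at least 2-fold higher in dendrites and 35.5% in somas. At least 32-fold, which all 3 receptors passed with this scaling, 13.6% were higher in dendrites and 7.81% in somas. The cut of 32-fold was not planned and lies just under the smallest of the 3 ratios, 36.2-fold for Grm5, so that all 3 passed is not a result. Grm5 did not pass 32-fold when scaled by sequenced reads (-4.70) or by the number of listed genes (-4.99), and Grm6 had no ratio with the limit of 400 nt. The median log2 ratio over all these genes was 0.27. Grm4 was in dendrites only, 1 of the 4 receptors in either mouse list, beside 39.6% of all genes in either list, and 0 of the 4 were in somas only, beside 11.8%.

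In the rat, Grm8 was 1.77 log2 units higher in dendrites (interval 1.60 to 1.95), and this value depended on the scaling. With the number of listed genes as the scale it was 0.32, with sequenced reads 1.33, and with soma contigs of at most 400 nt 0.02. That limit left the 414 soma reads of Grm8 unchanged and lowered only the total of listed soma reads. Of the 2166 rat genes in both lists, 47.1% were at least 2-fold higher in dendrites and 32.3% in somas with a median of 0.73, and by the number of listed genes the shares were 30.2% and 47.3%. Grm6 was in rat dendrites only, 1 of 4 receptors in either rat list, beside 40.6% of all genes there, and Grm3 and Grm5 were in rat somas only, 2 of the 4, beside 21.5% of all genes there. No receptor was listed in both compartments of both species, so the difference between compartments could not be set side by side in mouse and rat.

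**Figure D5:**
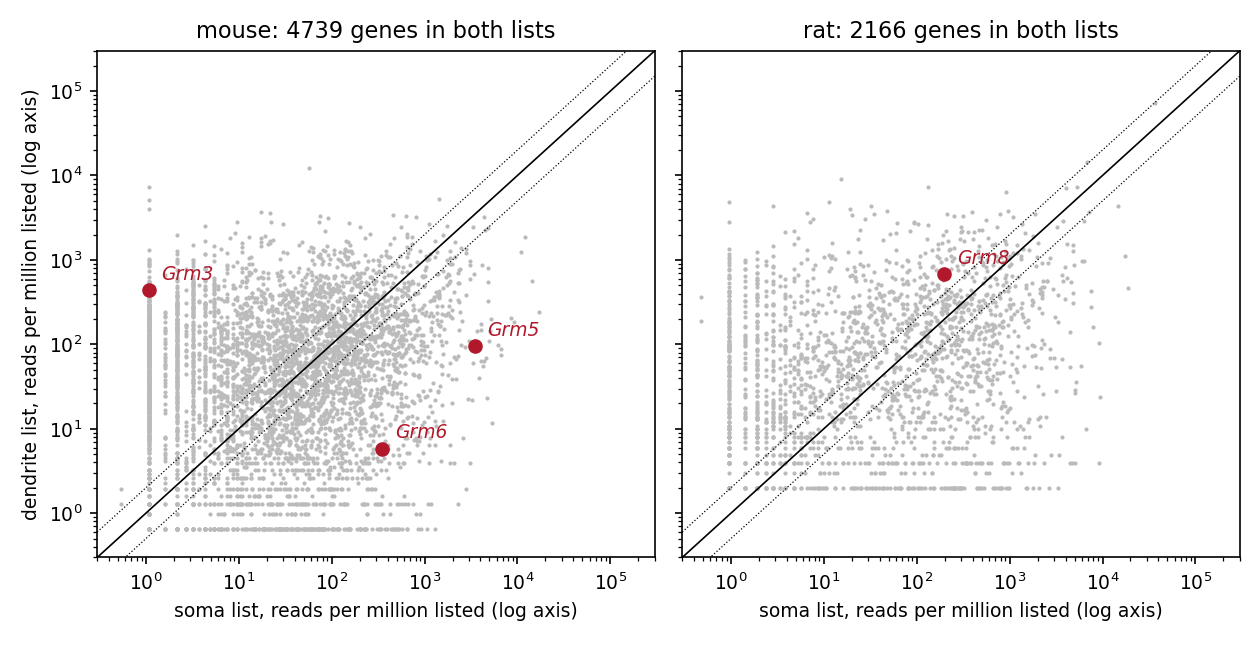
RPM of listed reads in the dendrite list against the soma list (both log axes) for every gene in both lists of mouse (left, 4739 genes) and rat (right, 2166 genes), with the receptors in red, the line of equal shares and dotted lines at 2-fold. Grm3 and Grm8 lie above the line, and Grm5 and Grm6 lie below it.

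At the high minimum of 256 reads in 1 intron, 1 of 4 receptors in mouse dendrites remained (Grm3), beside 23.5% of all listed genes. In mouse somas 2 of 3 remained (Grm5 and Grm6), beside 18.7%, in BAT cells 2 of 3 (Grm3 and Grm5), beside 40.2%, and in cardiomyocytes 0 of 1, beside 42.9%. In rat dendrites both listed receptors remained (Grm6 and Grm8), beside 15.8%, and in rat somas 1 of 3 (Grm8), beside 30.4%. With at most 4 receptors in a list, nothing was read from these shares.

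In all, 9 of the 31 introns in the models of Grm3, Grm4, Grm5 and Grm6 were listed, all 9 inside the coding part and all 9 in the dendrite list. In these models every intron but intron 1 of Grm3 and intron 1 of Grm6 lies inside the coding part, so nothing was read from that place. The 4 introns of the soma list and the 6 of the BAT list were all among the 9 of the dendrites, and so was that of the cardiomyocytes. Some of these introns had few reads in dendrites, and with a minimum of 8 reads per intron, chosen after seeing the data, 3 of the 5 BAT introns and 2 of the 2 soma introns were among the dendrite introns. Over all genes, 47.8% of the soma introns and 31.6% of the BAT introns were also in the dendrite list. The contigs inside these introns were counted in the same way. Of 20 dendrite contigs in introns shared with somas, 3 overlapped a soma contig (15.0%), and over all shared introns 34.6% did. Between dendrites and BAT cells it was 2 of 25 (8%) against 29.4%. When contigs within 500 nt of each other also counted, it was 5 of 20 (25%) against 40.9% with somas and 6 of 25 (24%) against 42.3% with BAT cells. The receptor introns are long, and the part of their length in this was not tested.

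All 75 mouse contigs of the receptors lay outside annotated exons and outside the span of other genes, at a median of 17383 nt from the nearest splice site. Their base composition was richer in A and T than that of all contigs, with medians of 63.6% against 59.2% in dendrites, 63.3% against 58.5% in somas and 63.4% against 58.6% in BAT cells. At least 10 adenines within 300 nt downstream were found for 5 of 28 receptor contigs in dendrites (17.9%, interval 6.06 to 36.9) and for 8.11% of all dendrite contigs. In somas it was 4 of 21 (19%, interval 5.45 to 41.9) and 18.6% of all, and in BAT cells 0 of 25, which allows a share of up to 13.7%, and 7.36% of all. The share over all contigs lay inside the interval of the receptors in each of these lists.

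Genes with a pattern like that of a receptor were sought by the Euclidean distance of log2 RPM of listed reads plus 1 over the 4 mouse lists. Nearest to Grm5 were Kcnab1, a subunit of voltage-gated potassium channels (distance 1.09), Rasgrf2, a Ras exchange factor of neurons (1.15), and Trim9, a ubiquitin ligase of neurons (1.45). With a pseudocount of 10 in place of 1 the nearest were Zfand3, Col19a1 and Kcnab1, so that Rasgrf2 and Trim9 were no longer among them. Kcnab1 had 455 reads in dendrites, 7427 in somas, 2874 in BAT cells and 6 in cardiomyocytes. Nearest to Grm3 were the phospholipase gene Pla2g12b (1.12), the GTPase-activating gene Stard13 (1.12) and the ubiquitin ligase gene Rnf111 (1.16). Stard13 had 1387 reads in dendrites, 12338 in BAT cells and none listed in somas or cardiomyocytes. With 4 pooled values for each gene, such likeness is a description only.

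Other genes of the pathway are given for comparison with the 4 of 7 receptors in the mouse lists, of which 1 was in all 4. Of the 22380 mouse coding genes, 55.2% were in at least 1 mouse list and 13.7% in all 4, and neither this set nor those below was tested against that share. Of 14 relatives in class C, 9 were in at least 1 mouse list and 2 in all 4, Gabbr1, a subunit of the GABA-B receptor, and Gpr158, an orphan receptor. Gabbr1 had 68 reads in mouse dendrites, 144 in somas, 22717 in BAT cells and 117 in cardiomyocytes, and Gpr158 had 3412, 259, 21585 and 118. Casr, the calcium-sensing receptor, had 2985 reads in mouse dendrites and was listed in no other list.

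Among 18 genes of group I signalling, 15 were in at least 1 mouse list and 6 in all 4. The IP3 receptor genes led, with 1669 reads of Itpr2 and 1618 of Itpr1 in mouse dendrites and 1591 of Itpr1 in somas. Itpr2 also led in BAT cells with 19213 reads, before Gna11, and in cardiomyocytes with 11312, before Itpr1. In rat dendrites Plcb1 led with 930 reads, and in rat somas Gnaq, the Gq subunit, with 3619. Plcb2 was listed in none of the 6 lists.

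Among 18 genes of group II and III signalling, 13 were in at least 1 mouse list and 5 in all 4. Kcnj3, a channel opened by Gi/o proteins, had 2039 reads in mouse dendrites, 3372 in somas, 466 in BAT cells and 25765 in cardiomyocytes. Adcy8, an adenylyl cyclase, had 2653 in dendrites, 838 in somas, 3796 in BAT cells and 4 in cardiomyocytes. In BAT cells Adcy2 (12236 reads) and Adcy9 (7613) led, in rat dendrites Gnai1 (435) and in rat somas Grip1 (4938). Gnai2, Gnaz, Adcy6, Pick1 and Kcnj9 were listed in none of the 6 lists. Of 18 regulators, 10 were in at least 1 mouse list and 1 in all 4. That was Grk4, a receptor kinase, with 3725 reads in mouse dendrites, 62 in somas, 6518 in BAT cells and 4127 in cardiomyocytes. Rgs7, which limits Gi/o signals, had 899 reads in mouse dendrites, 785 in somas and 4870 in BAT cells, and was not listed in cardiomyocytes.

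In the non-neuronal lists, the receptors stood beside other genes known from neurons. BAT cells had 8127 reads of Syt1, a synaptic vesicle gene, along with the 5294 of Grm5 and 9438 of Grm3, but at 455 RPM Syt1 was below its 4668 RPM in mouse somas. Of the other neuron markers, Camk2a had 1 read in BAT cells, and Map2, Tubb3 and Rbfox3 were not listed there. Markers of brown fat were listed there as 6 of 7, with 52450 reads of Pparg and 6596 of Ucp1. Cardiomyocytes had 7 of 9 cardiac markers, with 146224 reads of Ryr2, and besides the 6 reads of Grm5 they had 4505 of the neuronal kinase gene Camk2a (369 RPM, beside 240 in mouse somas) and none listed for Syt1. Markers did not keep to their own list: cardiomyocytes had 2600 reads of Cidea and 899 of Ucp1, and BAT cells had 26804 of Nkx2-5 and 12481 of Actn2, both cardiac markers. The lists hold intronic reads alone, so none of these counts is a level of expression, and whether reads of other cells entered the BAT list was not tested.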

How the data were processed

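The authors aligned 50 bp paired reads with the RUM pipeline to mm9 or rn4, kept unique intronic reads, dropped introns holding a predicted gene or a known poly(A) site, and joined reads up to 500 nt apart into contigs, pooling libraries. The deposited counts are raw reads per intron, not normalized and repeated on each contig, so they were taken once per transcript and intron. The libraries did not keep strand, so antisense reads cannot be told apart. The labels name 1 more BAT cell and 1 more cardiomyocyte than the paper describes.

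All contigs were used in every list. Starts were shifted by 1 to count from 1. Mouse contigs were placed in GENCODE vM1 models of NCBIM37, the mm9 assembly, and 99.4% of the listed mouse transcripts matched a coding gene. Rat sequence and intron lengths were not analysed here. No test was possible between conditions. Intervals are exact (Clopper-Pearson, Poisson, or conditional binomial for ratios) at 95%, and the interval of a ratio was checked on simulated counts. Adenine runs had at least 10 bases, A only, on the strand of the gene, downstream of the contig. Python 3.11.15, pandas 2.3.3, numpy 2.4.6, scipy 1.17.1 and matplotlib 3.10.9 were used. Named genes were the 7 receptors, the 3 genes nearest to a receptor listed in at least 3 mouse lists, and, of each gene list, the 2 genes with most reads in a list (some are not reported here) and unlisted defining genes. Casr in other lists, Camk2a in BAT cells, Gfap, Zfand3, Col19a1 and genes listed in every mouse list were named after their values were seen. The receptors and gene lists were chosen with earlier results of these data known. Alternatives covered contig length, read minimums, scaling, overlap, adenine runs and the pseudocount.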

Additional observations from a re-analysis of the deposited data

How the results depend on the processing

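No paired analysis was possible because each list pools its libraries and its columns carry no replicate numbers, and for the same reason no library could be left out. Of the main values recomputed under the alternatives, 67 stayed within their counting error or, for counts, within 1.5 times, 29 did not, and no ratio changed sign. With at least 32 reads per intron, 2 receptors and 4 introns remained in mouse dendrites and 2 introns in mouse somas, where a minimum of 8 reads also left 2, and both minimums left 0 receptors and 0 introns in cardiomyocytes. With at least 8 reads in both lists, a minimum for shared introns chosen after seeing the data, dendrites shared 2 receptor introns with mouse somas in place of 4 and 3 with BAT cells in place of 6, somas shared 1 with BAT cells in place of 3, and cardiomyocytes shared 0 with any list. With contigs of at most 400 nt, the receptor reads of mouse somas fell to 6424. Counts are given per intron, so an intron kept all its reads when any of its contigs was short enough. Grm5 thus kept its 6422 soma reads although its longer contigs were removed, and only Grm6 dropped out. Summed over contigs instead of once, they were 8177 in mouse dendrites, 116165 in mouse somas, 103575 in BAT cells, 1846 in rat dendrites and 882 in rat somas, by construction, since a count is repeated on each contig. The log2 ratio of dendrites to somas for Grm5 was -4.70 scaled by sequenced reads, -4.99 by the number of genes and -6.24 with soma contigs of at most 400 nt, and for Grm8 it was 1.33, 0.32 and 0.019. The ratio of Grm6 could not be had with that limit, which removes its soma contig. Within 500 nt, 5 dendrite contigs met a soma contig and 6 a BAT contig. With a pseudocount of 10, 1 of the 3 genes nearest to Grm5 stayed among its nearest. Counts under 10 reads limit Grm3 in mouse somas (2 reads) and rat somas (6), Grm4 in mouse dendrites (8) and Grm5 in cardiomyocytes (6). The depth of BAT and cardiomyocyte libraries is not given in the sources used here.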
